A study of Mus musculus with 20 samples.

Results

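Ribosome-bound RNA was compared with total RNA in mouse oocytes held in prophase arrest, before meiosis resumed. The comparison took the 4 libraries at 0 h of the 20 in the series, 2 of ribosome-bound RNA and 2 of total RNA, and the 7346 genes listed in both deposited tables, of 8114 genes listed in either. The ribosome-bound table held 197 genes that were not in the total RNA table, and the total RNA table held 571 that were not in the other, and neither set was used here. For each gene the log2(value + 1) of the ribosome-bound libraries was set against that of the total RNA libraries, and each library was first centred on its median shared gene because the 2 tables had been scaled separately. A positive difference therefore means a larger ratio of ribosome-bound to total RNA value, relative to the median gene, and a negative difference the reverse. Over-represented on ribosomes here means over-represented in the ribosome-bound libraries. How much of that RNA was being translated was not tested.

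All libraries came from C57BL/6 females 3 weeks old that carried Zp3-Cre and RiboTag. RiboTag is an allele that gives a ribosomal protein an HA epitope after Cre recombination, so that ribosomes and the RNA on them can be pulled down with an antibody. Zp3-Cre acts in the growing oocyte, so ribosomes of the surrounding follicle cells are not tagged. The females had received 5 IU of PMSG, a hormone that drives follicle growth, and ovaries were taken 44 h later into 1 µM cilostamide, an inhibitor of the phosphodiesterase PDE3A that keeps oocytes arrested. Cumulus cells were stripped off, and each sample held 200 oocytes. The 0 h oocytes, both ribosome-bound and total RNA, were never released from cilostamide, and those at 2, 4, 6 and 8 h had been moved to medium without it. The samples were duplicates, lettered A and B in the labels and called sample 1 and sample 2 here, that the labels do not tie to separate cultures or animals, so p-values measure only the spread between these samples. Because a library pools oocytes, fewer oocytes with a transcript and less of it per oocyte cannot be told apart.

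A fully grown oocyte is transcriptionally silent and works from transcripts made during growth. Some of these are translated while the oocyte is arrested, and others are stored with short poly(A) tails and translated only after release. A well-studied switch is the cytoplasmic polyadenylation element (CPE), a U-rich motif near the 3′ end that is bound by the protein CPEB1.

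The 4 libraries held between 27571236 and 42825538 reads, inferred from the spacing of the deposited values, so that a value of 10 stood for 282 to 432 reads. Across genes, the 2 ribosome-bound libraries correlated at r = 0.950 and the 2 total RNA libraries at r = 0.973, and libraries of different kinds at r = 0.890 to 0.909. Of 12 markers of oocytes, 11 were listed. Of 32 granulosa and cumulus markers 5 were listed, with a summed deposited value of 231 and 249 in the ribosome-bound and 422 and 375 in the total RNA libraries, and of 23 markers of blood, stroma and endothelium 2 were listed, summing to between 140 and 189. The listed ones were Fshr, Cyp19a1, Esr2, Nr5a2 and Serpine2 in the first set and Pecam1 and Tek in the second. Cyp11a1, Lhcgr, Star and the globin genes were not listed in both tables.

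At 0 h 1154 genes (15.7%) were over-represented on ribosomes and 1242 (16.9%) under-represented at an adjusted p under 0.05 by limma, 2396 in all (32.6%). Over-represented genes had a median difference of 0.96 and under-represented genes of -0.90 on the log2 scale. A change of at least 2-fold was called for 535 genes upward (7.28%) and 470 downward (6.4%). The middle 90% of all differences lay between -1.11 and 1.16, and the median gene sat at -0.06. The split between directions depended on the centring: with libraries scaled to the same sum, 850 were over- and 1706 under-represented, and with the values as deposited 852 and 1717. The median of all protein-coding genes was -0.05, and became -0.19 with equal sums and -0.20 as deposited. Group medians and single differences under these scalings are to be read beside that shift. Counts in the groups below are to be read beside 15.7% and 16.9% over all genes. Those with 1 library left out are to be read beside the overall fall in calls. Without total RNA sample 1 the count fell from 2396 to 1497, of which 761 were over- and 736 under-represented.

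**Figure D1:**
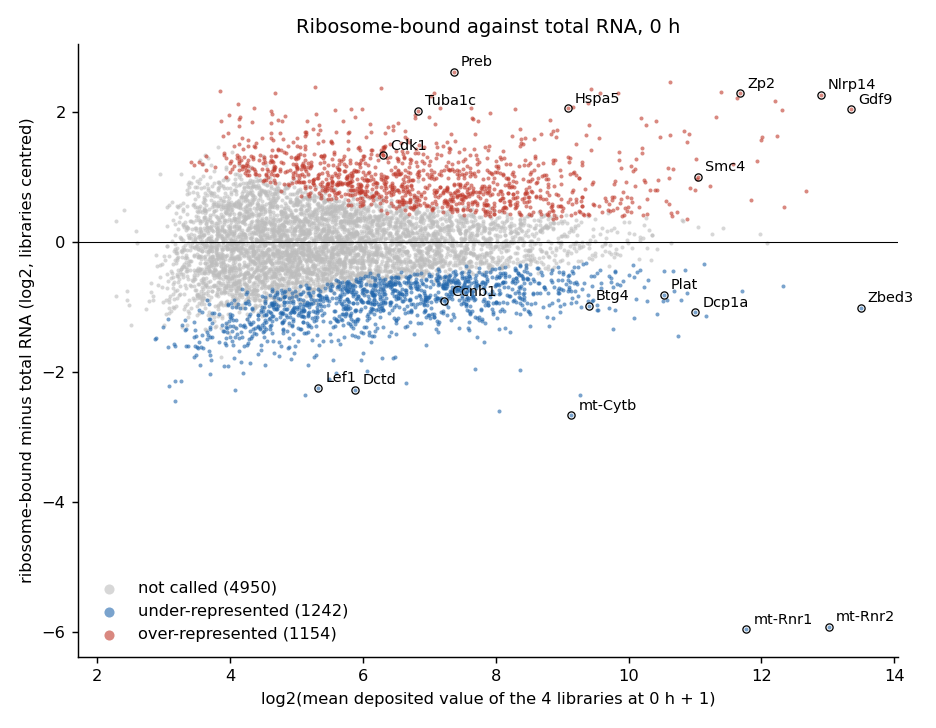
Each point is 1 of 7346 genes, placed by the log2 of its mean deposited value at 0 h (horizontal axis) and its difference between ribosome-bound and total RNA in log2 units (vertical axis), with called genes in colour and 18 genes named. The 2 mitochondrial ribosomal RNAs stand near -6, and the abundant oocyte transcripts Gdf9, Nlrp14 and Zp2 stand near 2.

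The largest differences belonged to RNA made inside mitochondria, where messages are translated by mitochondrial ribosomes and not by the tagged cytosolic ones. All 9 mitochondrially encoded genes listed were under-represented, with a median of -2.35, and 8 of them were when values were corrected for transcript length and GC content. The 12S ribosomal RNA mt-Rnr1 read 120 and 80.9 in the ribosome-bound libraries against 7098 and 6674 in total RNA, a 62.3-fold difference (log2 -5.96, SE 0.36, limma adjusted p = 2.05e-11). The 16S ribosomal RNA mt-Rnr2 read 309 and 187 against 15799 and 16817 (log2 -5.93, SE 0.34). The 2 kinds of library were thus far apart for both RNAs, with no overlap.

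The messenger RNAs of the same genome were lower by a smaller factor. Cytochrome b, mt-Cytb, read 172 and 110 against 1063 and 903, which was 6.38-fold lower (log2 -2.67, SE 0.23). mt-Nd1 stood at -2.61, mt-Co1, the catalytic subunit of cytochrome oxidase, at -2.35 and mt-Nd2 at -2.18, and the smallest difference of the 9 was -1.31. Together the 9 genes made up 0.118% and 0.0819% of the ribosome-bound libraries and 2.66% and 2.71% of the total RNA libraries. At 2, 4, 6 and 8 h, in libraries the 0 h comparison did not use, their median was -1.62, -1.72, -1.90 and -1.93.

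The nuclear genes of the respiratory chain, whose messages are read by cytosolic ribosomes, went the other way. Of 52 measured, 16 were over-represented and 0 under-represented, with a median of 0.75. The centred values of the 2 kinds of library did not overlap in 36 upward and 2 downward, and over all genes in 30.9% upward and 34.5% downward. Ndufa5, a subunit of complex I, read 41.5 and 40.3 on ribosomes and 8.29 and 8.71 in total RNA (log2 2.29, SE 0.36, limma adjusted p = 3.7e-05). Cox6c, a subunit of cytochrome oxidase, read 67.4 and 114 against 23.9 and 25.9 (log2 1.93, SE 0.26). Atp5a1, the alpha subunit of ATP synthase, stood at 1.30 (SE 0.20).

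Transcripts of the zona pellucida and of the growth factors that the oocyte secretes were among the most over-represented. Of the 11 oocyte markers measured, 10 were over-represented and none under-represented, with a median of 1.54. Most of these markers also belong to the lists of zona and secreted proteins or maternal-effect genes below, so these groups are not separate. Zp2, a protein of the egg coat, read 5411 and 5252 on ribosomes against 1301 and 1125 in total RNA, 4.89-fold higher (log2 2.29, SE 0.12, limma adjusted p = 2.86e-12). Gdf9, a growth factor that acts on granulosa cells, read 17958 and 14981 against 4715 and 4164 (log2 2.04, SE 0.16, adjusted p = 2.82e-09). Both of its ribosome-bound values lay far above both total RNA values. Its partner Bmp15 stood at 1.56 (SE 0.13) and the sperm-binding coat protein Zp3 at 1.63 (SE 0.16).

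The wider list of zona and secreted oocyte proteins was not uniform. Of 17 measured, 10 were over- and 5 under-represented, with a median of 0.74, and 3 were under-represented without ribosome-bound sample 1. Oosp1, an oocyte-secreted protein, read 187 and 236 on ribosomes against 466 and 451 in total RNA (log2 -0.97, SE 0.14, limma adjusted p = 1.5e-05). Plat, the secreted protease tissue plasminogen activator, was also on the lower side and is described with the stored transcripts.

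Maternal-effect genes, whose products the embryo needs before its own genome is active, were over-represented in 20 and under-represented in 7 of 31 measured, with a median of 0.78 that was 0.52 without ribosome-bound sample 1. The highest were components or partners of the subcortical maternal complex, a protein lattice under the oocyte membrane. Nlrp14 read 12309 and 12387 on ribosomes against 2786 and 2912 in total RNA (log2 2.27, SE 0.11, limma adjusted p = 3.42e-13). Nlrp5, also known as Mater, stood at 2.21 (SE 0.15), and Padi6, needed for the cytoplasmic lattices, at 2.16 (SE 0.13). These ribosome-bound libraries all lay above the total RNA libraries. The pseudogene Nlrp5-ps, which resembles Nlrp5 and whose reads may be split with it, stood at 2.38 (SE 0.30).

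Other maternal-effect genes ranged down to clear under-representation. Dppa3, which protects maternal methylation, stood at 1.54 (SE 0.18) and Npm2, a histone chaperone, at 1.09 (SE 0.19). Zbed3, another partner of the subcortical complex, read 7544 and 6713 on ribosomes against 16642 and 15262 in total RNA, 2.02-fold lower (log2 -1.01, SE 0.13, limma adjusted p = 2.13e-06). Zfp57, a zinc finger protein that guards imprints, read 1433 and 1244 against 3356 and 3193 (log2 -1.14, SE 0.12). For Zbed3 and Zfp57 both ribosome-bound libraries lay below both total RNA libraries.

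**Figure D2:**
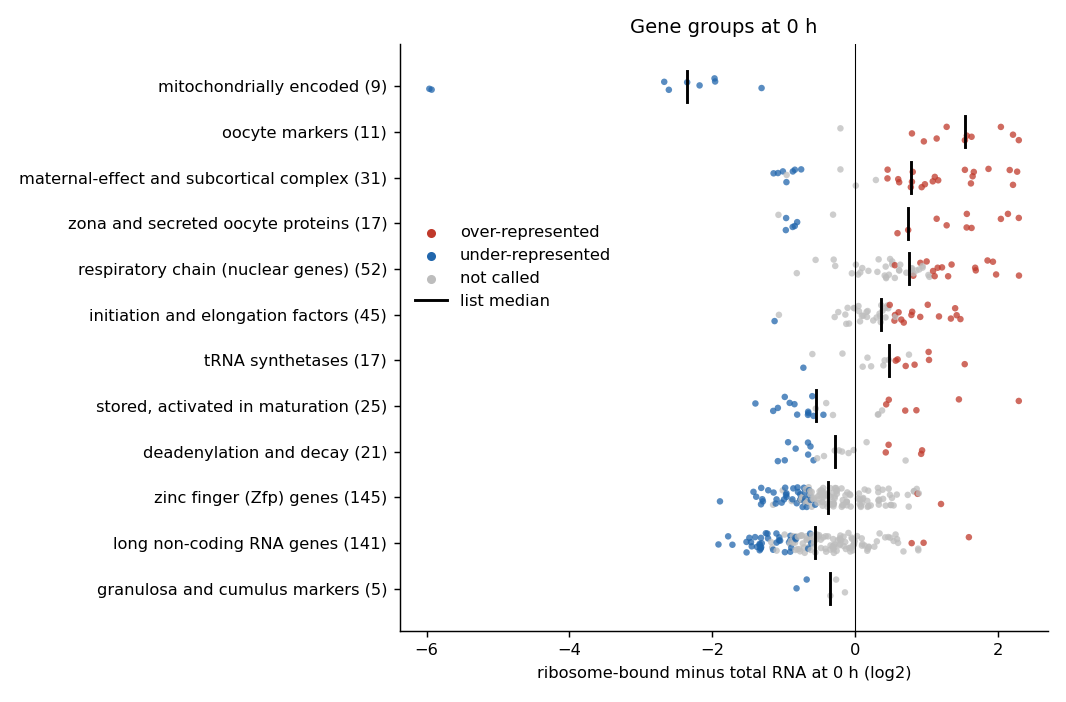
Each point is a gene of the group named at the left (number measured in brackets), placed by its difference between ribosome-bound and total RNA at 0 h in log2 units, coloured by its call, and the black bar is the group median. Oocyte markers centre on 1.54 and mitochondrially encoded genes on -2.35, while maternal-effect genes spread to both sides of 0.

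Transcripts for the making, folding and moving of proteins lay mostly above the median gene. Of 45 initiation and elongation factors 15 were over- and 1 under-represented, with a median of 0.36. The helicases Eif4a1, at 1.34 (SE 0.20), and Eif4a2, at 1.40 (SE 0.19), which unwind messages for the scanning ribosome, were among the highest. Of 17 tRNA synthetases 7 were over- and 1 under-represented (median 0.47). Without total RNA sample 1 the over-represented genes were 7 of 45 and 4 of 17.

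The genes of ribosomal proteins stood close to the median gene. Of 47 cytosolic ribosomal protein genes 7 were over- and 3 under-represented. Their median of 0.10 became -0.05 when libraries were scaled to the same sum, where that of all protein-coding genes was -0.19. The counts over and under were 2 and 1 (median -0.03) without ribosome-bound sample 1, and 5 and 1 (median 0.30) without ribosome-bound sample 2. They were 3 and 0 (median 0.06) without total RNA sample 1, and 4 and 1 (median 0.05) without total RNA sample 2. Of 42 mitochondrial ribosomal protein genes 2 were called in each direction (median 0.02, which was -0.13 with equal sums and lay between -0.06 without ribosome-bound sample 1 and 0.24 without ribosome-bound sample 2). Rpl22, the ribosomal protein that carries the tag in RiboTag, read 67.6 and 33.2 against 21.3 and 22.7 (log2 1.23, SE 0.36, limma adjusted p = 0.0113). It was 0.71 and no longer called (adjusted p = 0.21) without ribosome-bound sample 1, and 1.18 (adjusted p = 0.0682) without total RNA sample 1. Of 35 proteasome genes 6 were over- and 2 under-represented, the latter 1 without total RNA sample 1.

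In the endoplasmic reticulum group 14 of 35 were over- and 5 under-represented. The group median of 0.13 became -0.02 with libraries scaled to equal sums, where that of all protein-coding genes was -0.19. Without ribosome-bound sample 1 the median was 0.39 and 2 were under-represented, without total RNA sample 1 also 2, and without total RNA sample 2 the median was 0.26 and 3 were under-represented. Hspa5, the main chaperone of the reticulum, read 879 and 831 on ribosomes against 229 and 226 in total RNA (log2 2.06, SE 0.20, limma adjusted p = 5.77e-08). Pdia3, which forms disulphide bonds, stood at 1.74 (SE 0.15). Dnajc3, a co-chaperone of Hspa5, was lower on ribosomes, at -0.57 (SE 0.13). Of 47 kinesins, dyneins and tubulins 13 were over- and 3 under-represented, led by the tubulins Tubb2a, at 2.08 (SE 0.15), and Tuba1c, at 2.02 (SE 0.19), while the kinesin Kif17 was at -0.59 (SE 0.14).

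Several transcripts known to be stored and then translated during maturation were under-represented while the oocyte was arrested. A list of 27 genes reported in the literature as activated in maturation had 25 members measured, of which 13 were under- and 6 over-represented, with a median of -0.55 against -0.06 over all genes. Because the list was drawn up with results of these data known, it is no independent evidence of its direction. Its over-represented members were 3 without total RNA sample 2. Ccnb1, cyclin B1, the activator of CDK1 at M-phase entry, read 103 and 88.0 on ribosomes against 202 and 200 in total RNA (log2 -0.92, SE 0.14, limma adjusted p = 2.96e-05). Plat read 828 and 1194 against 1860 and 2024 (log2 -0.81, SE 0.15, adjusted p = 0.000236). In each of these genes both ribosome-bound values lay below both total RNA values.

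Btg4, an adaptor that brings the deadenylase to maternal messages, read 385 and 460 against 900 and 955 (log2 -0.99, SE 0.13, limma adjusted p = 5.49e-06). Dazl, an RNA-binding protein that promotes translation in meiosis, read 163 and 154 against 273 and 281 (log2 -0.66, SE 0.15). Dcp1a, a cofactor of decapping, read 1225 and 1217 against 2913 and 2834 (log2 -1.08, SE 0.12). Mos, the kinase that starts the MAPK cascade in oocytes, read 128 and 97.9 against 156 and 175. Its difference of -0.41 (SE 0.16) missed the threshold (adjusted p = 0.06), but passed it with equal sums, at -0.55 (adjusted p = 0.0102). That scaling also lowered the median of all protein-coding genes, to -0.19.

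The literature list also held genes on the opposite side. Zar1, which takes part in the storage of maternal messages, read 1740 and 1602 on ribosomes against 746 and 615 in total RNA (log2 1.45, SE 0.16). Zp2 belongs to it too. Tpx2, a spindle assembly factor, stood at 0.43 (SE 0.13, limma adjusted p = 0.0141). Its call was lost with equal sums, at 0.28, where the median of all protein-coding genes was -0.19. The call was also lost in a fit of the 4 libraries alone (limma adjusted p = 0.055). Without ribosome-bound sample 2 the difference was 0.37, and without total RNA sample 2 it was 0.36. The activator of the anaphase-promoting complex Cdc20 read 50.0 and 56.1 against 48.0 and 46.1, a difference of 0.32 that was not called (adjusted p = 0.287, 95% interval -0.14 to 0.77).

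Of the genes named here, 75 had a 3′ UTR of at least 100 bases in their longest annotated protein-coding transcript, and 22 of these held a CPE in its last 100 bases, written as TTTTAT or TTTTAAT on the transcript strand. Among the 22, 16 were under- and 6 over-represented, of 29 under- and 43 over-represented named genes with such a 3′ UTR. Most of these genes were named for their 0 h calls. Over all protein-coding genes with such a 3′ UTR, 31.6% of under- and 14.3% of over-represented genes held a CPE there. Windows of 30 bases around the last such element are shown for 8 of the under-represented genes and for 2 of the over-represented, since the motif is found on both sides. They come from GENCODE vM21 on GRCm38 (mm10) and are printed 5′ to 3′ on the transcript strand, with the CPE and the polyadenylation signal AATAAA in capitals.
Dctd (chr8:48141635-48141664, plus strand): ttaaaaTTTTATtaaaatcatccagcacca
Lef1 (chr3:131224318-131224347, plus strand): agtgtcaTTTTATtaagAATAAAtttgctc
Orc6 (chr8:85308249-85308278, plus strand): tcaagcccAATAAAtgttatTTTTATatgc
Btg4 (chr9:51119803-51119832, plus strand): atccctTTTTATgtctttttaaaagtttga
Tcl1 (chr12:105216791-105216820, minus strand): gtgggaTTTTATgtggttctattttagaga
Magoh (chr4:107887352-107887381, plus strand): ggcaatTTTTATaaacAATAAAtgatgatc
Plat (chr8:22782750-22782779, plus strand): tttataTTTTAATctattttagtttttact
Bub1b (chr2:118641556-118641585, plus strand): cactgtgtaTTTTATAATAAAatagttttt
Gdf9 (chr11:53437862-53437891, plus strand): gtggTTTTATgtgacggaagAATAAActgt
Pdia3 (chr2:121438658-121438687, plus strand): ttaaagtattgccctccTTTTATagctaaa

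The distance from the CPE to the polyadenylation signal varied. In Bub1b the signal followed the element directly, in Lef1 and Magoh it came after 4 bases, and in Gdf9 after 10. In Orc6 the element lay between the signal and the end. Ccnb1 held 4 CPEs in its 3′ UTR of 1028 bases, but the last began 144 bases before the annotated end, and in Dazl the last began 373 bases before it. No such letters were found in the 126 bases of the Mos 3′ UTR. The longest annotated transcript may not be the one present in oocytes, and a match is a description of letters, not of binding.

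Dctd, a deaminase that supplies thymidine nucleotides, and Lef1, a partner of beta-catenin in transcription, were the nuclear protein-coding genes lowest on ribosomes after Hivep2. Dctd read 19.8 and 15.5 against 94.1 and 103 (log2 -2.27, SE 0.26, limma adjusted p = 7.82e-07). Lef1 read 12.3 and 11.3 against 69.9 and 63.6 (log2 -2.25, SE 0.31). Hivep2, a zinc finger transcription factor, read 13.4 and 6.35 against 65.0 and 50.7 (log2 -2.36, SE 0.37), and Arl14epl stood at -2.12 (SE 0.31). The order covers called genes whose values averaged 20 or more and whose 2 kinds of library stayed apart, with unnamed gene models left out.

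Tcl1, a coactivator of the kinase AKT, read 124 and 99.8 against 256 and 227 (log2 -0.96, SE 0.14). Magoh, a core subunit of the exon junction complex, read 14.4 and 26.7 against 41.2 and 45.9 (log2 -0.96, SE 0.23, limma adjusted p = 0.00221). It stood at -0.55 and was no longer called without ribosome-bound sample 1. In both genes all ribosome-bound values lay below all total RNA values.

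**Figure D3:**
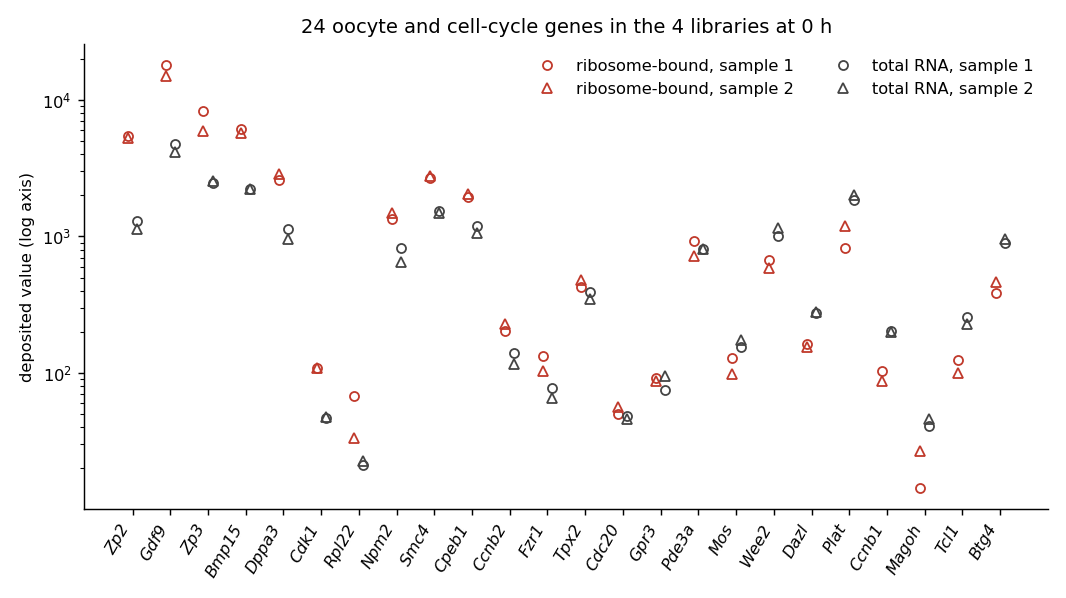
Deposited values (log axis) of 24 oocyte and cell-cycle genes in the 4 libraries at 0 h, with ribosome-bound RNA in red and total RNA in grey, and sample 1 as circles and sample 2 as triangles, ordered by difference. Both ribosome-bound points lie above both total RNA points from Zp2 to Cdc20 and below them from Mos to Btg4, and those of Gpr3 and Pde3a overlap.

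Genes that hold the oocyte in arrest or drive entry into M-phase did not move as a block. Of 24 measured 7 were over- and 5 under-represented. The group median of 0.13 became -0.01 with equal sums, where that of all protein-coding genes was -0.19. The group median was 0.06 without sample 1 of either kind and 0.21 without ribosome-bound sample 2. Without ribosome-bound sample 1, or without total RNA sample 2, 3 were called in each direction, and 3 were under-represented without total RNA sample 1. Cdk1, the kinase that drives M-phase, read 108 and 110 on ribosomes against 46.7 and 48.0 in total RNA (log2 1.33, SE 0.25, limma adjusted p = 0.000271). Its partner cyclin Ccnb2 read 202 and 227 against 140 and 116 (log2 0.89, SE 0.28, adjusted p = 0.0169), while Ccnb1 and Ccna2, at -0.89 (SE 0.17), lay on the other side. The Ccnb2 call was lost without ribosome-bound sample 2 (0.82, adjusted p = 0.0793) and without total RNA sample 2 (0.76, adjusted p = 0.123).

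Wee2, the oocyte kinase that holds CDK1 inactive, was under-represented, at -0.63 (SE 0.12), and Plk1, a kinase that opposes it, was over-represented, at 0.68 (SE 0.13). Fzr1, the activator that keeps the anaphase-promoting complex working in arrest, read 134 and 103 against 77.9 and 65.1 (log2 0.86, SE 0.24, limma adjusted p = 0.00842). That call was lost without ribosome-bound sample 1 (adjusted p = 0.0963) or total RNA sample 2 (adjusted p = 0.0822). Gpr3, the receptor that keeps cyclic AMP high, read 92.5 and 87.3 against 74.6 and 95.04. Pde3a, the phosphodiesterase that cilostamide inhibits, read 933 and 717 against 811 and 808. Neither was called, with 95% intervals of -0.19 to 0.68 for Gpr3 and -0.17 to 0.50 for Pde3a.

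In the anaphase-promoting complex 6 of 20 were over- and 2 under-represented (median 0.33), but only 2 were over-represented without total RNA sample 2 and 3 without ribosome-bound sample 1. Pttg1, securin, the inhibitor of separase, read 1119 and 945 on ribosomes against 350 and 304 in total RNA (log2 1.80, SE 0.14, limma adjusted p = 1.47e-09). The scaffold subunit Anapc1 stood at 1.01 (SE 0.14). Cdc27, a subunit of the same complex, read 369 and 312 against 671 and 632 (log2 -0.79, SE 0.13). Fbxo43, the inhibitor EMI2 that holds mature eggs in metaphase II, stood at -0.60 (SE 0.16). Its call was lost without ribosome-bound sample 1 (-0.42, adjusted p = 0.0975) and without total RNA sample 2 (-0.50, adjusted p = 0.0775).

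Of 25 spindle genes 10 were over- and 2 under-represented, with 1 under-represented without ribosome-bound sample 1 or total RNA sample 2. Of 25 kinetochore and checkpoint genes 7 were over- and 4 under-represented, but 5 and 6 with libraries scaled to equal sums, 4 and 6 with the values as deposited, and 2 and 3 without ribosome-bound sample 2. Without total RNA sample 1 they were 4 and 2, and without total RNA sample 2 they were 5 and 1. Birc5, survivin, of the chromosomal passenger complex, stood at 1.21 (SE 0.17) and the microtubule stabiliser Tacc3 at 0.95 (SE 0.12). The checkpoint kinase Bub1 stood at 1.16 (SE 0.14) and Kntc1, a recruiter of dynein to kinetochores, at 1.43 (SE 0.16). Bub1b, BubR1, which restrains the anaphase-promoting complex, read 1193 and 1417 against 2049 and 1885 (log2 -0.45, SE 0.12, limma adjusted p = 0.00514). Its call was lost without ribosome-bound sample 1 (adjusted p = 0.0643) or total RNA sample 1 (adjusted p = 0.0709). The kinesin Kif18a, at -0.72 (SE 0.22), lost its call without ribosome-bound sample 1 or total RNA sample 2, and with the correction for length and GC content (adjusted p = 0.0571).

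Cohesin and condensin genes split evenly, with 5 over- and 5 under-represented of 21, and with 2 over- and 3 under-represented without ribosome-bound sample 1, 3 and 2 without total RNA sample 2, and 2 under-represented without total RNA sample 1. Smc4, a condensin core subunit, read 2657 and 2790 on ribosomes against 1541 and 1478 in total RNA (log2 1.00, SE 0.16, limma adjusted p = 5.23e-05). Ncapd2, a regulatory subunit of the same complex, read 7.26 and 8.76 against 21.6 and 26.6 (log2 -1.32, SE 0.34), and missed the threshold narrowly without total RNA sample 2 (adjusted p = 0.0513). Espl1, separase, the protease that cuts cohesin, stood at 0.97 (SE 0.15).

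Of 24 replication genes 7 were over- and 5 under-represented, with 3 over-represented without total RNA sample 1 and 4 without total RNA sample 2. Rpa1, the single-strand binding protein, stood at 1.29 (SE 0.17). Orc6, of the origin recognition complex, read 38.9 and 24.8 against 82.8 and 73.2 (log2 -1.15, SE 0.24, limma adjusted p = 0.000718), and Dbf4, the activator of the kinase CDC7, stood at -1.05 (SE 0.17). In the MAPK cascade 2 of 12 (16.7%) were called in each direction, near the shares of 15.7% upward and 16.9% downward over all genes.

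The machinery that handles stored RNA was itself divided. Of 30 genes for RNA binding and storage 7 were over- and 8 under-represented. Cpeb1, the protein that binds the CPE, read 1944 and 2040 on ribosomes against 1198 and 1054 in total RNA (log2 0.98, SE 0.12, limma adjusted p = 2.34e-06). Pabpc1l, the poly(A)-binding protein of oocytes, stood at 1.59 (SE 0.16). Papola, the poly(A) polymerase, stood at -0.81 (SE 0.13), and Ybx1, a packaging protein of messages, read 50.8 and 78.3 against 171 and 167 (log2 -1.26, SE 0.21).

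Deadenylation and decay genes were under-represented in 8 and over-represented in 4 of 21, with a median of -0.29 that was -0.48 without ribosome-bound sample 1, and 2 were over-represented without total RNA sample 2. Beside Btg4 and Dcp1a on the lower side stood Cnot1, the scaffold of the deadenylase, at 0.94 (SE 0.13), and Edc4, the scaffold of decapping, at 0.92 (SE 0.14). Chromatin genes were called upward in 4 and downward in 7 of 23, though their median was 0.20. That median was -0.01 without total RNA sample 1 and 0.24 without total RNA sample 2. Fewer of these genes were called downward with any 1 library left out. Among the over-represented, the histone demethylase Kdm1b, needed for maternal imprints, stood at 1.87 (SE 0.14) and the acetyltransferase Hat1 at 1.37 (SE 0.20).

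Genes named Zfp, most of which encode zinc finger transcription factors, lay below the median gene, with 34 under- and 2 over-represented of 145 and a median of -0.39. The share under-represented was 23.4%, against 16.9% over all genes. Fewer Zfp genes were called under-represented with any 1 library left out, as over all genes. Without total RNA sample 2 their share was close to that over all genes, and their median was -0.32. Zfp46 read 35.0 and 32.9 against 104 and 97.1 (log2 -1.39, SE 0.22). Long non-coding RNA genes, which ribosomes are not known to translate as a class, were under-represented in 39 and over-represented in 3 of 141, with a median of -0.56. Without total RNA sample 1, 26 of them were under-represented. Protein-coding genes had a median of -0.05.

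Several of the most over-represented genes differed strongly between the 2 ribosome-bound libraries. Lars2, a mitochondrial tRNA synthetase, read 1540 and 3800 on ribosomes against 463 and 516 in total RNA (log2 2.46, SE 0.39, limma adjusted p = 3.66e-05). Gphn, gephyrin, read 680 and 1639 against 227 and 229, and Cdk8, a kinase of the Mediator complex, read 791 and 1727 against 272 and 260. Zc3h7a, at 2.30 (SE 0.29), was likewise higher in sample 2 than in sample 1, and all ribosome-bound values of these genes lay above the total RNA values. The 18S ribosomal RNA entry Rn18s-rs5, chosen after its values were seen, read 5312 and 6779 against 2018 and 2326 (log2 1.62, SE 0.30). The entry Mir6236, also chosen after its values were seen, read 312 and 684 against 103 and 150 (log2 2.04, SE 0.40). Both entries were also higher in ribosome-bound sample 2 than in sample 1, and stood lower at 8 h, at 0.78 for Rn18s-rs5 and 1.18 for Mir6236. The part of these entries in these results was not tested. Whether ribosomal RNA reads were counted in Lars2, Gphn, Cdk8 or Zc3h7a was not tested either.

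Preb, a regulator of vesicle budding from the reticulum, had the highest fitted difference of the named genes, at 2.62 (SE 0.80, limma adjusted p = 0.0145). It rested on 1 library: the values were 571 and 34.6 on ribosomes against 19.4 and 31.7 in total RNA, and without ribosome-bound sample 1 the difference was 0.59 (adjusted p = 0.557). Without total RNA sample 1 it was 2.27 (adjusted p = 0.115). Cryl1, the crystallin-related enzyme, read 214 and 219 against 37.9 and 61.0 (log2 2.30, SE 0.24), with no overlap. Of the 5 granulosa and cumulus markers listed 0 were over- and 2 under-represented. These were Serpine2, at -0.68 (SE 0.16), and Nr5a2, at -0.82 (SE 0.28), which was not called when ribosome-bound sample 2 or either total RNA sample was left out.

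Under-represented messages had longer 3′ UTRs. The median 3′ UTR of the longest annotated transcript was 929 bases in over-represented, 1287.5 in uncalled and 1746 in under-represented protein-coding genes. Across genes, Spearman's rho between 3′ UTR length and the difference was -0.21 over 7094 genes, which share the same 4 libraries. In the 1419 genes with the shortest 3′ UTRs, up to 432 bases, 23.7% of genes were over- and 9.73% under-represented, and in the 1419 with the longest, from 2853 bases, 8.95% and 22.7%. Correlations with 5′ UTR length (-0.14), coding length (0.04), transcript length (-0.11) and GC content (0.12) were weaker. When the median over all annotated protein-coding transcripts was taken in place of the longest, rho was -0.17. The share called rose with abundance. Of the 1422 protein-coding genes with the highest mean values at 0 h, 31.8% were over- and 25.5% under-represented. Of the 1422 with the lowest, 4.29% and 8.58% were. Counts in groups of abundant genes, such as the oocyte markers, are to be read beside these shares.

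A CPE in the last 100 bases was found in 21.5% of the 6879 protein-coding genes with a 3′ UTR of at least that length. The share was 14.3% of over-represented, 20.7% of uncalled and 31.6% of under-represented genes. Over the whole 3′ UTR, which favours long ones, the shares were 55.4%, 69.1% and 88.2%. The polyadenylation signal AATAAA was in the last 100 bases of 69.4%, 66.5% and 67.5%, the Pumilio motif TGTANATA in 6.27%, 5.64% and 5.38%, and the DAZL motif TTGTTT in 14.1%, 12.5% and 15.3%. Only the transcript strand was searched. The TTTTAAT form of the CPE can overlap AATAAA by its last letters, as it did in Dcp1a.

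The difference between genes with and without a CPE was seen at each 3′ UTR length. Among the shortest, 100 to 492 bases, those with a CPE had a median of -0.13 and those without one 0.27. Among the longest, from 2898 bases, the medians were -0.41 and -0.21. Over all lengths the 1478 genes with a CPE had a median of -0.25 at 0 h and the 5401 without it 0.01. At 2, 4, 6 and 8 h the median of the first set was -0.12, -0.05, 0.06 and 0.14, and that of the second 0.03, -0.01, -0.01 and -0.04.

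**Figure D4:**
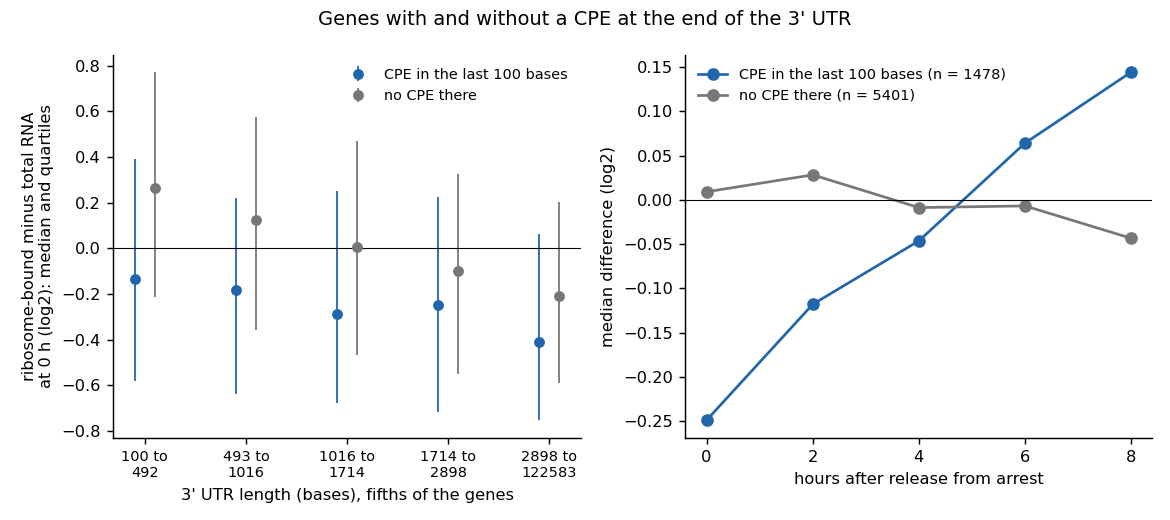
Left, the median difference between ribosome-bound and total RNA at 0 h (points, with quartiles as bars, log2) for genes with and without a CPE in the last 100 bases, in 5 equal bins of 3′ UTR length. Right, the median of the same sets at 0 to 8 h, where genes with a CPE go from -0.25 to 0.14.

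The same measure was then taken at later times, from other libraries, to see how far the arrested pattern lasted. Across the 7346 genes the 0 h differences correlated with those at 2 h at r = 0.703, at 4 h at 0.570, at 6 h at 0.411 and at 8 h at 0.191. Of the genes over-represented at 0 h 94.5% were above 0 at 2 h and 69.6% at 8 h, where 49.7% and 48.7% of all genes were. Of the genes under-represented at 0 h 91.8% were below 0 at 2 h and 58.5% at 8 h. At 2 h 922 genes were over- (12.6%) and 606 under-represented (8.25%), 1528 in all (20.8%). The over-represented sets of 0 h and 2 h shared 672 genes, 58.2% of the 0 h and 72.9% of the 2 h set, and the under-represented sets 442, 35.6% and 72.9%. At 8 h 1077 genes were over- (14.7%) and 636 under-represented (8.66%), 1713 in all (23.3%), a split that turned to 705 and 1375 with equal sums and to 717 and 1351 as deposited. With each library centred on its median 366 were over-represented at both times, 31.7% of the 0 h set and 33.98% of the 8 h set. The under-represented sets shared 193 genes, 15.5% of the 0 h and 30.3% of the 8 h set.

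The change of the ratio itself was tested as 8 h against 0 h. It rose in 912 genes (12.4%) and fell in 612 (8.33%), 1524 in all (20.7%), by limma at an adjusted p under 0.05. Among the genes under-represented at 0 h 186 were over-represented at 8 h, and 49 went the opposite way. Members of the literature list rose in 16 and fell in 2 of 25, and their median went from -0.55 through 0.02, 0.54 and 0.74 to 0.87. The list was drawn up with results of these data known, so its rise is no independent evidence either. Plat went from -0.81 to 1.82, a rise of 2.63 (SE 0.21, adjusted p = 2.97e-08), and Ccnb1 from -0.92 to 1.37. Dctd and Lef1 rose by 2.53 and 2.28, and ended at 0.26 and 0.03, where neither was called. Both were named for their low 0 h values, which enter this test, so their move towards 0 is partly fixed by the choice.

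Several groups that were high on ribosomes in arrest came down. The named genes were chosen by their 0 h values, which enter this test, so a move towards 0 is partly fixed by the choice. Oocyte markers fell in 9 and rose in none of 11, and their median went from 1.54 to 0.44. Respiratory chain genes fell in 13 and rose in none of 52, and their median went from 0.75 to -0.09. Smc4 went from 1.00 to -1.04 (a fall of 2.04, SE 0.23, limma adjusted p = 9.87e-07) and Zp2 from 2.29 to 0.57. Nlrp14 fell by 0.59 yet stayed at 1.67, and Hspa5, at 2.06 and 1.99, had no called change (-0.06, SE 0.28, adjusted p = 0.904). Without ribosome-bound sample 2 at 8 h the count of genes called there fell from 1713 to 856, and without total RNA sample 1 to 1035.

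**Figure D5:**
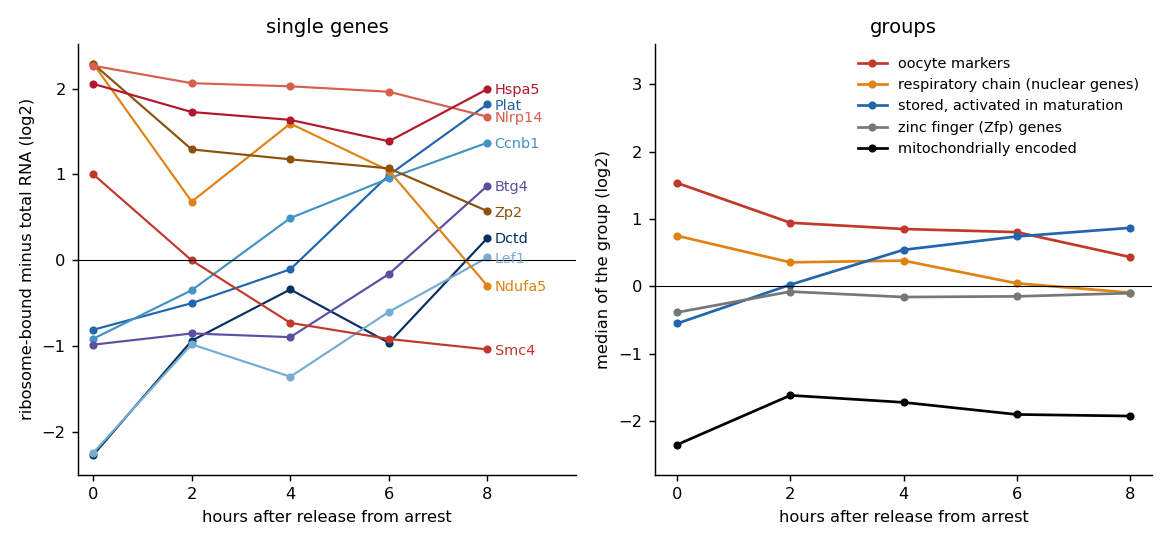
Left, the difference between ribosome-bound and total RNA (log2) of 10 genes at 0, 2, 4, 6 and 8 h, each point from 2 libraries of each kind. Right, the median of 5 gene groups at the same times, where the stored transcripts activated in maturation cross the oocyte markers and mitochondrially encoded genes stay below -1.6.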

How the data were processed

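The authors deposited 1 table of ribosome-bound and 1 of total RNA, each with a value per gene and library. By their size and spacing the values are CPM that a library factor has scaled, which is treated here as a signal with no fixed sum: the deposited signal of the 4 libraries summed to between 977494 and 1007450 per library, and each table lists only genes above a minimum. The build mm10, HISAT2, HTSeq, Trimmomatic 0.36, SAMtools, FastQC, limma and edgeR are named per the submitters' processing notes. The label field that describes the samples calls both kinds ribosome-bound; titles and the series design were followed.

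Genes with a value of at least 1 in 2 libraries were kept, which removed none. Each library's log2(value + 1) was centred on its median over shared genes, which nearly cancels any factor by which a library was scaled, and limma 3.58.1 (R 4.3.3, trended empirical Bayes) was fitted over 20 libraries in 10 groups, with Benjamini-Hochberg adjustment over 7346 genes and a two-sided threshold of 0.05. Fold changes are on the log2(value + 1) scale and understate those of low genes. The 4 libraries of a comparison were set against the spread over all groups. Values are per gene, not per length, so levels are not compared between genes.

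Named genes were the 10 largest called differences each way with a mean value of at least 20, up to 2 members of each gene list in each direction, and a panel of 24; some results are not reported here. Members and lists were chosen with earlier results of these data known. Of 7346 genes 7339 matched GENCODE vM21 by identifier. The test was tried on simulated data. Count models were not run; reads inferred from the spacing of values were used for depth only. Alternatives covered pseudocounts of 0.5 and 5, filters, scaling, the libraries fitted, a replicate block, a correction for length and GC content (loess, span 0.5) and leaving out each library.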

Additional observations from a re-analysis of the deposited data

Results flagged for a closer look

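Of the 87 genes that were chosen by the naming rule and described, 57 had a ratio of ribosome-bound to total RNA that differed between 8 h and 0 h by limma at an adjusted p under 0.05, 26 higher and 31 lower at 8 h. Over all genes 20.7% did so. Values are log2, 8 h minus 0 h, and each is the test of that difference itself. Because most of these genes were named for a large 0 h difference, a move towards 0 is partly fixed by the choice.

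Among transcripts low on ribosomes in arrest, the largest rises were those of Plat (2.63), Dctd (2.53), Ccnb1 (2.29), Lef1 (2.28), Fbxo43 (2.25), Kif18a (2.20), Magoh (2.20) and Orc6 (2.04). Smaller rises were those of Oosp1 (1.94), Cdc27 (1.94), Btg4 (1.85), mt-Rnr2 (1.74), Tcl1 (1.71), Hivep2 (1.61), Dazl (1.496), Mos (1.49), Bub1b (1.36), Ccna2 (1.25), Dbf4 (1.13), Zfp46 (1.02), Serpine2 (1.01), Dnajc3 (0.98), Dcp1a (0.90), Papola (0.80) and Zfp57 (0.77). Tpx2 was above 0 at 0 h and rose by 0.84.

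All 31 that fell were above 0 at 0 h. The largest falls were those of Ndufa5 (-2.59), Cox6c (-2.25), Gphn (-2.18), Smc4 (-2.04), Tubb2a (-1.89), Pabpc1l (-1.85), Cdk8 (-1.73), Zp2 (-1.72), Lars2 (-1.68), Pdia3 (-1.62), Zp3 (-1.56) and Zc3h7a (-1.51). Birc5 (-1.30), Kdm1b (-1.25), Zar1 (-1.13), Cryl1 (-1.12), Fzr1 (-1.10), Cnot1 (-1.08) and Gdf9 (-1.05) came next. Smaller falls were those of Rpa1 (-0.98), Npm2 (-0.94), Pttg1 (-0.91), Atp5a1 (-0.88), Tacc3 (-0.84), Tuba1c (-0.80), Plk1 (-0.78), Padi6 (-0.76), Dppa3 (-0.73), Nlrp5 (-0.66), Bmp15 (-0.63) and Nlrp14 (-0.59).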

How the results depend on the processing

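At 0 h, between 2259 (replicate block) and 2569 (as deposited) genes were called in fits of all 20 libraries with both samples of each group, 1762 in a fit of the 4 libraries alone, and 1497 to 1976 with 1 of them left out, against 2396. The fewest were without total RNA sample 1. At 8 h 1713 genes were called, 856 to 1412 with 1 library left out and 1597 with the block, and the share over-represented among them went from 62.9% to 33.9% with equal sums and to 34.7% as deposited. The ratio at 8 h against 0 h changed in 1524 genes, in 1061 to 1421 with 1 library left out and in 1395 with the replicate block. The deviations of equally lettered ribosome-bound and total RNA libraries correlated between -0.08 and 0.04 over the 5 times. With 2 libraries of each kind, this cannot tell whether equal letters mean the same oocytes. Of 83 named genes called at 0 h, 72 were called under each alternative, and Pde3a, not called, went from 0.17 to -0.042 without ribosome-bound sample 1 and to 0.37 without sample 2. Setting the median difference to 0 and leaving ribosome-bound sample 1 at 4 h out of the spread, both chosen after seeing the data, gave 2392 and 2476. With 1 library left out, the lone sample of its group is assumed to vary like the other groups. The planned count models were not run, and the reads inferred from the spacing of the values were used for depth only. The cause of these changes was not tested.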

Other observations

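Immunoglobulin constant-region genes, which oocytes are not known to express, were listed in both tables, and were chosen here after their values were seen. Of 4 such genes Ighg3 was under-represented, with 16.5 and 24.04 on ribosomes at 0 h against 50.6 and 43.4 in total RNA (log2 -1.04, SE 0.31, limma adjusted p = 0.0115). Ighm, at -0.42 (adjusted p = 0.25), and Ighg2b, at 0.08 (adjusted p = 0.819), were not called. Ighg1 read 124 and 157 in the ribosome-bound libraries at 0 h and 103 and 147 in total RNA, and its difference of 0.32 was not called by limma (SE 0.19, adjusted p = 0.192).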
